A study of Mus musculus with 8 samples.

Results

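The 54 genes described here are mouse genes whose transcripts mark kidney cells other than the proximal tubule. They comprise 15 distal nephron genes, 4 podocyte genes, 10 endothelial genes, 16 leukocyte genes and 9 stromal genes. The list was drawn up by symbol, with earlier results of these data known. Of the 54 genes, 53 had at least 1 probe among the 20659 genes with a named probe on the array. Cd68, a lysosomal protein of macrophages, had no probe whose transcript accession matched and is not analysed here. The samples were labelled as primary cultured kidney proximal tubule cells of male C57/BJ mice aged 6 weeks. 4 samples had received 1 uM GW4064, a synthetic agonist of the bile acid receptor FXR, and 4 had received DMSO, the solvent alone, each for 24 h in serum-free medium. Both groups came from the same preparation method, in which trypsin-digested kidney cortex was passed through a strainer, tubules were pelleted by centrifugation and the attached cells were grown to confluence, with no step that sorts cells by a marker. Whether samples within a group derive from different animals or dishes is not stated in the labels, and p-values below therefore reflect sample-to-sample spread that may be technical only.

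Along the nephron, filtrate leaves the glomerulus, whose filter is built by podocytes and fenestrated endothelium, and passes through the proximal tubule, the thick ascending limb, the distal convoluted and connecting tubule and the collecting duct. Each segment carries its own transporters: the thick ascending limb makes uromodulin and moves magnesium and calcium between its cells, the distal convoluted tubule reabsorbs sodium chloride and magnesium, principal cells move sodium and water, and intercalated cells move acid and base. Blood vessels, resident macrophages and other leukocytes, and fibroblasts and pericytes lie around the tubules, and their transcripts enter a tubule culture with any cell that is carried over. In bulk RNA from such a culture, fewer cells of a type and less RNA per cell cannot be told apart.

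The promoters of Umod, Trpm6, Eng and C1qb are shown as 1 example each of a distal gene that fell, the distal gene that rose, and an endothelial and a leukocyte gene that rose; Umod, Eng and C1qb were picked because they hold a match, so they do not stand for their classes. Each is the 250 bases before the gene's start in RefSeq, mouse build GRCm38.p6, printed 5′ to 3′ on the gene's strand. Capitals mark matches, on either strand, to 3 short motifs chosen after the values were seen: AGGTCA, a core bound by nuclear receptors, GTTAAT, a core bound by HNF1 factors, and AGGAAGT, a core bound by ETS factors. In the printed promoters no match overlapped another. The entries are Umod at chr7:119479263-119479512 on the minus strand, Trpm6 at chr19:18749480-18749729 on the plus strand, Eng at chr2:32646345-32646594 on the plus strand and C1qb at chr4:136886201-136886450 on the minus strand.
Umod: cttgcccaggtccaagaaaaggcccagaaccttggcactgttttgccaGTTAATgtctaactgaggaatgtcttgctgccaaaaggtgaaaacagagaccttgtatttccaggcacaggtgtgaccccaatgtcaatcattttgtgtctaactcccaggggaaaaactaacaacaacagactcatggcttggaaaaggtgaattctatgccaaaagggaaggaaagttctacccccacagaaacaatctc
Trpm6: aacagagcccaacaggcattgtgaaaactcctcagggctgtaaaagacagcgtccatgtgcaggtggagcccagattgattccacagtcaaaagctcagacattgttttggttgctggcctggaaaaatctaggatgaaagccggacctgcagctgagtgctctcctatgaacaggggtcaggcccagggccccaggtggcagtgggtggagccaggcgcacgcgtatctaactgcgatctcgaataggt
Eng: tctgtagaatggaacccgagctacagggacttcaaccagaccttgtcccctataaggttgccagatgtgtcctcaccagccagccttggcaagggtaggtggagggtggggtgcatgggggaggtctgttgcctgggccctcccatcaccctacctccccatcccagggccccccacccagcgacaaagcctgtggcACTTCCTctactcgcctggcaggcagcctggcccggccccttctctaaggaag
C1qb: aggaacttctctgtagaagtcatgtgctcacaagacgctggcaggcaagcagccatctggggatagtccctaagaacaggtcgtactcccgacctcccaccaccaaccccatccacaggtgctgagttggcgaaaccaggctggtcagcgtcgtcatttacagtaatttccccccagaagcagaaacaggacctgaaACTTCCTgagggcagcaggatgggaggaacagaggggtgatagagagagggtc
Umod held 1 HNF1 core, Eng and C1qb each held 1 ETS core, and Trpm6 held none of these letters. Promoters were listed for only 8 of the 16 markers that passed the test. Cdh5, Plvap, Esam, Csf1r, Tyrobp, Cd74, Pdgfrb and Thy1 had no listed promoter, so their letters were not searched. Over the 9 promoters of those 8 genes, AGGAAGT was in 2, GTTAAT in 1 and AGGTCA in 0. The promoters of Cldn16, Slc12a3, Coro1a and Fbln2 held none of the 3. AGGAAGT was found in 12 of the 42 promoters listed for 36 marker genes (28.6%), against 7.69% of all 32851 promoters of that length. AGGTCA was found in 6 of the 42 (14.3%), against 14.0% of all promoters, and GTTAAT in 3 (7.14%), against 6.43%. These matches describe letters only, and promoters of 1 gene can overlap.

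RNA of each sample was labelled with Cy3 and hybridised to 1 one-colour Agilent array. Processed signals were put on the log2 scale and the 75th percentile of each array was subtracted, which gives the log2 level used below; levels of different probes do not rank transcripts and are compared only between samples. The 75th percentile was 1520 ± 231 units in GW4064 and 1757 ± 214 units in DMSO (SD, n = 4 each), and between 63.3% and 66.3% of spots were well above background on GW4064 arrays, against 62.1% to 63.7% on DMSO arrays. The number of arrays limits the precision. Each of 2 slides held 2 arrays of each group, but GW4064 samples always lay at places 3 and 4 of a slide and DMSO samples at places 1 and 2, so place and treatment cannot be told apart. Of 30 proximal tubule markers, 2 or more GW4064 arrays detected 30 (signal well above background), against 28 detected by 2 or more DMSO arrays. Of the 29 that were tested, 18 rose (62.1%) and 3 fell (10.3%) with GW4064, beside 11.8% and 8.95% of all genes. Their median log2 change was 0.79.

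Transcripts of every non-proximal class were detected in both groups. Of the 53 markers with a probe, 47 (88.7%) were well above background on at least 2 of 4 GW4064 arrays, where 71.4% of all genes were, and 47 (88.7%) on at least 2 of 4 DMSO arrays, where 70.0% of all genes were. On all 4 arrays the counts were 44 in GW4064 and 45 in DMSO. By class, at least 2 GW4064 arrays detected 12 of 15 distal nephron, 4 of 4 podocyte, 9 of 10 endothelial, 14 of 15 leukocyte and 8 of 9 stromal markers, and the counts on DMSO arrays were 12, 4, 9, 14 and 8. Calb1, the calcium-binding protein calbindin of the distal tubule, Tek, an angiopoietin receptor of endothelium, and Lum, a proteoglycan of fibroblasts, were detected by no array of either group. Scnn1g, the gamma subunit of the epithelial sodium channel of principal cells, was the gene well above background in 1 group only. Its log2 level was -4.03, -8.68, -8.61 and -8.49 on the GW4064 arrays, against -8.29, -8.14, -8.57 and -7.96 on the DMSO arrays. Only GW4064 replicate 1 stood above background, so no fold is given. Slc12a1, the sodium-potassium-chloride cotransporter that defines the thick ascending limb, was well above background on 1 GW4064 array and 2 DMSO arrays, and Cd79a, part of the B-cell receptor, on 1 array of each group. These 6 genes did not reach 4 of 8 arrays and were not tested. A detected signal on an array was not tested against cross-hybridisation or against low expression by the cultured tubule cells themselves.

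**Figure D1:**
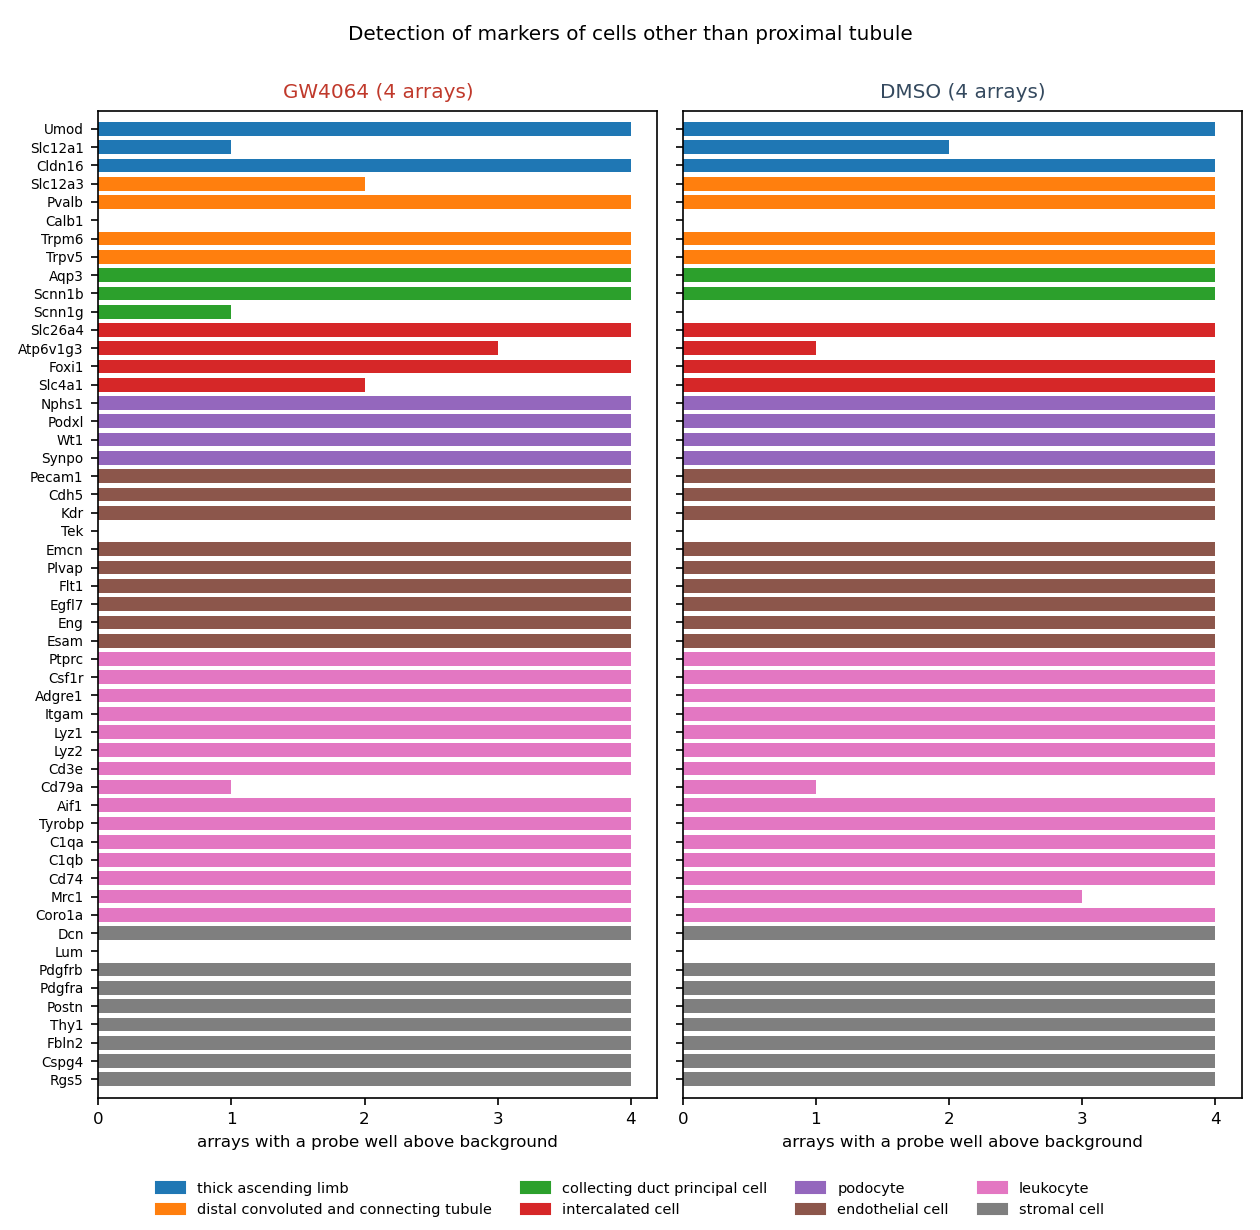
Horizontal bars give the number of arrays, from 0 to 4, on which any probe of the gene was well above background, for 53 markers coloured by cell class, with GW4064 in the left panel and DMSO in the right panel. Most genes reach 4 in both panels, while Calb1, Tek and Lum have no bar.

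Across the 47 tested markers, 12 were higher with GW4064 (25.5%), where 11.8% of all 14476 tested genes were higher, and 4 were lower (8.51%), where 8.95% of all genes were lower (limma, Benjamini-Hochberg adjusted p under 0.05). In either direction 16 passed (34.0%), where 20.8% of all genes did. The other 31 did not pass. The changes were small: the median log2 change of the 47 was 0.16, beside 0.01 for all genes tested, and the median size was 0.27, beside 0.10. These sizes were not matched for signal, since 23 of the 47 had a mean level under -3, against 3345 of all 14476 genes. All 4 GW4064 arrays lay above all 4 DMSO arrays for 10 markers, where 15.0% of all genes separated that way, and below them for 4, where 11.2% did, so 14 did not overlap in either direction, where 26.2% of all genes did not. The counts depended on single arrays, and the calls over all genes, 3006 with every array, changed as well. Without DMSO replicate 2 there were 7 higher and 2 lower (2107 over all genes). Without GW4064 replicate 3 there were 9 and 2 (2509), and without GW4064 replicate 4 there were 10 and 2 (2827). Leaving out DMSO replicate 3 gave 13 higher and 5 lower (2776 over all genes). On slide 1 alone 7 were higher and 1 lower (966 over all genes). On slide 2 alone, with 2 arrays a group, 2 were higher and 0 lower (220 over all genes). At an unadjusted p under 0.05 the slide 2 counts were 8 and 10. A normexp background correction gave 0 and 0 (3 higher and 1 lower at an unadjusted p under 0.05), with 119 calls over all genes. The counts were 11 and 2 (2192 over all genes) once spots of extreme local background were reset. These were 6 on DMSO replicate 3 and 4 on DMSO replicate 4. The share of all genes at an unadjusted p under 0.05 is not given here. The adjusted shares are therefore no background for counts at that cut.

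**Figure D2:**
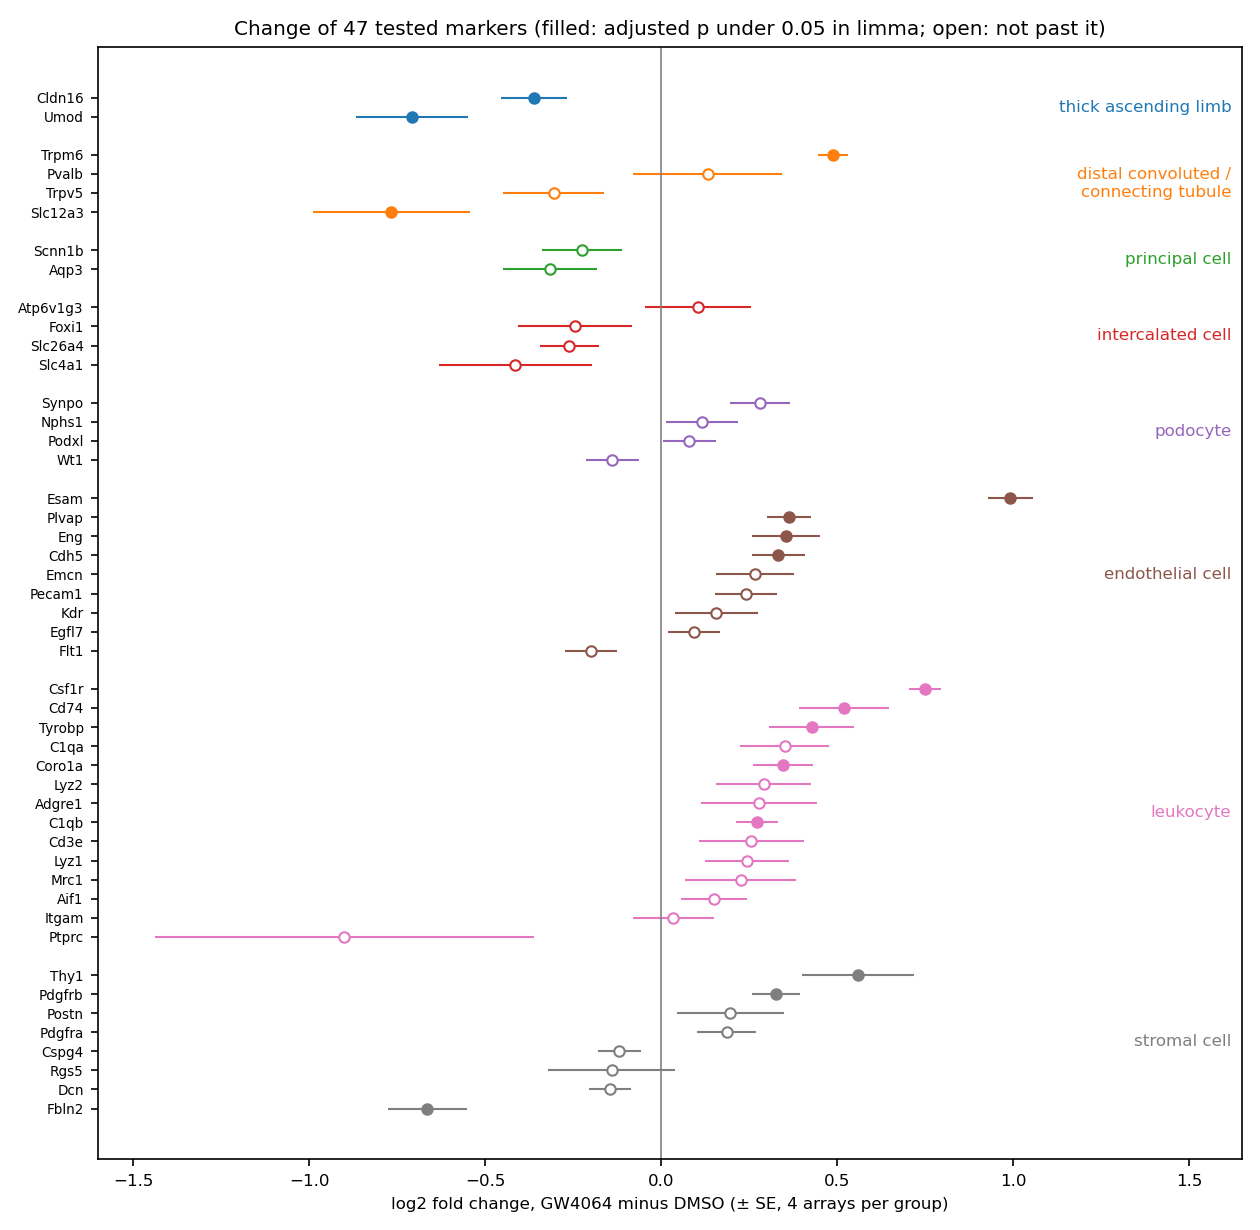
Points give the log2 fold change, GW4064 minus DMSO, and bars its standard error for 47 markers grouped by cell class, filled where the adjusted p in limma was under 0.05. Thick ascending limb genes lie left of 0, endothelial and leukocyte genes mostly lie right of 0 apart from Flt1 and Ptprc, and the error bar of Ptprc is wide.

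The distal nephron genes moved in both directions. Of 12 tested, 3 fell (25%), Umod, Cldn16 and Slc12a3, and 1 rose (8.33%), Trpm6, with a median log2 change of -0.28. Among all genes 8.95% fell and 11.8% rose. Under normexp with extreme backgrounds reset, 1 fell and 1 rose and the median was -0.09. Uromodulin (Umod), a urinary protein made by the thick ascending limb, had log2 levels of -4.09, -3.55, -4.27 and -3.98 on the GW4064 arrays, against -3.19, -3.21, -3.56 and -3.09 on the DMSO arrays. The highest GW4064 array, replicate 2, lay just above the lowest DMSO array, replicate 3, and the other 3 lay below every DMSO array. Its means were -3.97 ± 0.30 in GW4064 and -3.26 ± 0.21 in DMSO (SD, n = 4 each), a log2 change of -0.71 ± 0.16 (SE), or 1.63-fold lower, with an adjusted p of 0.0162 in limma. The change was -0.62 on slide 1 and -0.80 on slide 2, and -0.39 under normexp with extreme backgrounds reset (adjusted p 0.0489).

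Claudin 16 (Cldn16), a tight junction protein that passes magnesium and calcium between cells of the thick ascending limb, read -3.20, -3.14, -3.41 and -3.49 on the GW4064 arrays, against -2.83, -2.93, -3.13 and -2.91 on the DMSO arrays. Every GW4064 array lay below every DMSO array, although GW4064 replicate 2 and DMSO replicate 3 nearly met. Its log2 change was -0.36 ± 0.09, with an adjusted p of 0.0284 in limma, and the change was -0.29 on slide 1 and -0.43 on slide 2. The call was lost, with an adjusted p of up to 0.0724, when DMSO replicate 1, 2 or 4 or GW4064 replicate 3 or 4 was left out. Under normexp with extreme backgrounds reset its change was -0.20 (adjusted p 0.0824). The summed signal of these 2 tested genes, in units of the array's 75th percentile, ranged over 0.146 to 0.199 in GW4064 and 0.199 to 0.250 in DMSO. With Slc12a1, which was not tested, the sums overlapped, at 0.155 to 0.228 in GW4064 and 0.204 to 0.280 in DMSO. That overlap rests on GW4064 replicate 3, where Slc12a1 read -3.61, against -8.52 to -8.39 on the other GW4064 arrays.

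Slc12a3, the thiazide-sensitive sodium chloride cotransporter that defines the distal convoluted tubule, read -5.93, -5.68, -6.56 and -6.57 on the GW4064 arrays, against -5.42, -5.24, -5.80 and -5.21 on the DMSO arrays. GW4064 replicate 2 lay inside the DMSO range, and the probe was well above background on 2 GW4064 arrays and 4 DMSO arrays. Its log2 change was -0.77 ± 0.22 (limma adjusted p 0.0441), and was -0.48 on slide 1 and -1.06 on slide 2. The adjusted p was above 0.05, up to 0.107, without DMSO replicate 1, 2 or 4 or GW4064 replicate 1, 3 or 4. Under normexp with extreme backgrounds reset the change was -0.08 (adjusted p 0.59). Trpm6, the magnesium channel of the apical membrane in the distal convoluted tubule, went the other way. It read 1.35, 1.29, 1.36 and 1.34 on the GW4064 arrays, against 0.79, 0.79, 0.90 and 0.91 on the DMSO arrays. The groups did not overlap, and the means were 1.34 ± 0.03 in GW4064 and 0.85 ± 0.07 in DMSO (SD, n = 4 each). The log2 change was 0.49 ± 0.04, or 1.4-fold higher, with a limma adjusted p of 0.000157, 0.53 on slide 1 and 0.45 on slide 2, and the call held without any single array.

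The remaining distal genes did not pass. Trpv5, the apical calcium channel, changed by -0.31 ± 0.14 and Pvalb, the calcium-binding protein parvalbumin, by 0.13 ± 0.21 on the log2 scale. Trpv5 passed as lower without DMSO replicate 3. In principal cells, Aqp3, the basolateral water channel, read -4.08, -4.03, -3.89 and -3.82 on the GW4064 arrays, against -3.27, -3.80, -3.91 and -3.58 on the DMSO arrays. DMSO replicate 3 lay among the GW4064 values, and the log2 change was -0.32 ± 0.13 (limma adjusted p 0.135). Scnn1b, the beta subunit of the epithelial sodium channel, changed by -0.22 ± 0.11. Among intercalated cell genes, Slc26a4, the chloride-bicarbonate exchanger pendrin, read -5.14, -5.00, -5.33 and -5.01 on the GW4064 arrays, against -4.95, -4.91, -4.85 and -4.72 on the DMSO arrays. Its groups did not overlap, and its log2 change of -0.26 ± 0.08 missed the threshold with an adjusted p of 0.0603. Foxi1, the transcription factor that sets intercalated identity, changed by -0.25 ± 0.16, Slc4a1, the anion exchanger of acid-secreting cells, by -0.41 ± 0.22, and Atp6v1g3, a subunit of the proton pump, by 0.10 ± 0.15. At an unadjusted p under 0.05, 1 principal cell gene and 1 intercalated cell gene were lower and 0 were higher. The counts of distal genes past the adjusted threshold were 1 higher and 1 lower without any one of DMSO replicates 1, 2 and 4 and GW4064 replicates 3 and 4, and 1 higher and 2 lower without GW4064 replicate 1.

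**Figure D3:**
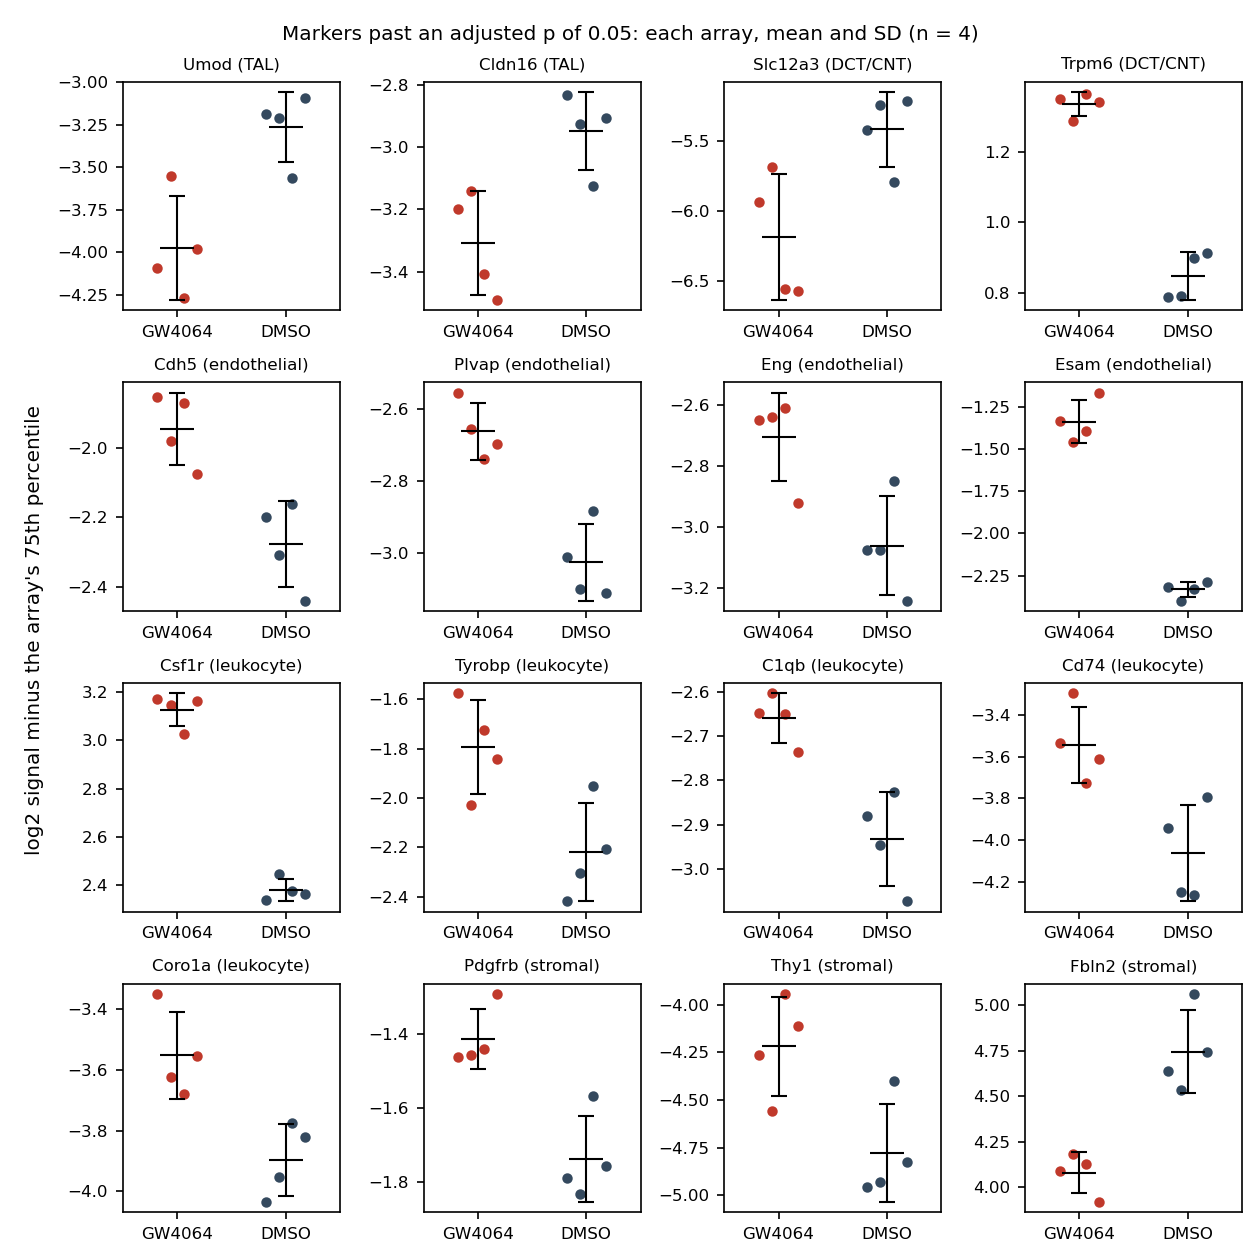
Each panel shows 1 marker past an adjusted p of 0.05, with its log2 level on each of 4 GW4064 arrays (red, left) and 4 DMSO arrays (dark, right), the mean as a horizontal line and the SD as a bar; each panel has its own vertical scale, and TAL and DCT/CNT stand for thick ascending limb and for distal convoluted and connecting tubule. The groups are far apart for Trpm6, Esam and Csf1r and meet or overlap for Umod, Slc12a3, Eng, Tyrobp and Thy1.

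No podocyte gene passed the adjusted threshold in limma, and 1 was higher and 0 lower at an unadjusted p under 0.05. Nephrin (Nphs1), the protein of the slit diaphragm, read -2.72, -3.05, -2.74 and -2.87 on the GW4064 arrays, against -3.10, -2.93, -2.73 and -3.10 on the DMSO arrays. The groups overlapped throughout, and the log2 change was 0.12 ± 0.10 (limma adjusted p 0.466). Podxl, the sialomucin of the foot process surface, changed by 0.08 ± 0.07, and Wt1, a transcription factor kept on in mature podocytes, by -0.14 ± 0.08. Synpo, an actin-associated protein of foot processes, read 0.52, 0.37, 0.53 and 0.34 on the GW4064 arrays, against -0.07, 0.18, 0.32 and 0.20 on the DMSO arrays. The lowest GW4064 array, replicate 4, lay above the highest DMSO array, replicate 3, and the log2 change of 0.28 ± 0.09 had an adjusted p of 0.052. It passed when DMSO replicate 3 was left out, while a second Synpo probe changed by 0.02 ± 0.05. The summed podocyte signal ranged over 3.54 to 4.13 in GW4064 and 3.43 to 4.23 in DMSO, and Wt1 and Synpo make up most of that sum.

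Endothelial genes rose or did not pass. Of 9 tested, 4 rose (44.4%), Cdh5, Plvap, Eng and Esam, and 0 fell, beside 11.8% and 8.95% of all genes. At an unadjusted p under 0.05 in limma, a cut with no share of all genes beside it, 6 were higher and 1 lower. The median log2 change was 0.27. Esam, an adhesion molecule of endothelial cells and platelets, read -1.33, -1.46, -1.40 and -1.17 on the GW4064 arrays, against -2.31, -2.40, -2.33 and -2.29 on the DMSO arrays. The lowest GW4064 array lay well above the highest DMSO array, and the means were -1.34 ± 0.13 in GW4064 and -2.33 ± 0.05 in DMSO (SD, n = 4 each). Its log2 change was 0.99 ± 0.06, or 1.99-fold higher (limma adjusted p 3.17e-05), and was 0.96 on slide 1 and 1.03 on slide 2.

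VE-cadherin (Cdh5), the adherens junction protein that defines endothelium, read -1.85, -1.98, -1.87 and -2.07 on the GW4064 arrays, against -2.20, -2.31, -2.16 and -2.44 on the DMSO arrays. No GW4064 array fell to the highest DMSO value. Its log2 change was 0.33 ± 0.07 (limma adjusted p 0.0166), and was 0.34 on slide 1 and 0.33 on slide 2. Plvap, which forms the diaphragms of fenestrated capillaries, read -2.56, -2.66, -2.74 and -2.70 on the GW4064 arrays, against -3.01, -3.10, -2.88 and -3.11 on the DMSO arrays. Again the lowest GW4064 value exceeded the highest DMSO value. The log2 change was 0.36 ± 0.06 (adjusted p 0.0052), 0.45 on slide 1 and 0.28 on slide 2, and its second probe changed by 0.33 ± 0.08. Endoglin (Eng), a co-receptor of the TGF-beta family, read -2.65, -2.64, -2.61 and -2.92 on the GW4064 arrays, against -3.08, -3.08, -2.85 and -3.24 on the DMSO arrays. GW4064 replicate 4 lay below DMSO replicate 3. The log2 change was 0.35 ± 0.10 (adjusted p 0.0346), 0.43 on slide 1 and 0.28 on slide 2, and it missed the threshold, with an adjusted p of up to 0.0888, without DMSO replicate 1, 2 or 4 or GW4064 replicate 1, 2 or 3.

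Pecam1, the junctional protein CD31, read -3.63, -3.62, -3.46 and -3.57 on the GW4064 arrays, against -3.61, -3.95, -3.72 and -3.96 on the DMSO arrays. The values overlapped at DMSO replicate 1, and the log2 change was 0.24 ± 0.09 (adjusted p 0.0892), which passed without that array. The 2 receptors of vascular endothelial growth factor gave 0.16 ± 0.12 for Kdr and -0.20 ± 0.07 for Flt1, neither past the threshold, and Flt1 passed as lower without DMSO replicate 1. A second Kdr probe changed by -0.07 ± 0.10. Emcn, a sialomucin of capillaries and veins, changed by 0.27 ± 0.11, and Egfl7, a secreted vessel protein, by 0.09 ± 0.07. The summed endothelial signal ranged over 6.28 to 7.07 in GW4064 and 5.48 to 6.39 in DMSO, which overlap. Egfl7 and Kdr, which did not pass, make up most of that sum, so it says little about the genes that rose.

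Leukocyte genes also rose or did not pass. Of 14 tested, 5 rose (35.7%), Csf1r, Tyrobp, C1qb, Cd74 and Coro1a, and 0 fell, beside 11.8% and 8.95% of all genes. At an unadjusted p under 0.05 in limma, a cut with no share of all genes beside it, 6 were higher and 0 lower. The median log2 change was 0.27. The summed leukocyte signal ranged over 15.6 to 17.6 in GW4064 and 12.0 to 13.6 in DMSO, and that sum includes Csf1r. Without Csf1r the sums overlapped, at 7.49 to 8.75 in GW4064 and 6.95 to 8.10 in DMSO. Csf1r, the receptor for the growth factor of macrophages, read 3.17, 3.14, 3.03 and 3.16 on the GW4064 arrays, against 2.34, 2.45, 2.37 and 2.36 on the DMSO arrays. The groups were separate by more than their own ranges, with means of 3.13 ± 0.07 in GW4064 and 2.38 ± 0.05 in DMSO (SD, n = 4 each). Its log2 change was 0.75 ± 0.05, or 1.68-fold higher (limma adjusted p 2.35e-05), 0.77 on slide 1 and 0.73 on slide 2. Its other probes changed by 0.80 ± 0.06 and 0.34 ± 0.08.

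C1qb, a chain of the complement protein C1q made by macrophages, read -2.65, -2.60, -2.65 and -2.74 on the GW4064 arrays, against -2.88, -2.95, -2.83 and -3.07 on the DMSO arrays. All GW4064 arrays lay above all DMSO arrays, and the log2 change was 0.27 ± 0.06 (adjusted p 0.014). Its partner chain C1qa changed by 0.35 ± 0.13, with an adjusted p of 0.0866 that passed without DMSO replicate 3. Cd74, the invariant chain that escorts MHC class II, read -3.53, -3.30, -3.73 and -3.61 on the GW4064 arrays, against -3.94, -4.25, -4.26 and -3.79 on the DMSO arrays. GW4064 replicate 3 and DMSO replicate 4 came close without crossing. The log2 change was 0.52 ± 0.13 (adjusted p 0.0243), 0.68 on slide 1 and 0.36 on slide 2. It was past the threshold no longer, with an adjusted p of up to 0.0658, without DMSO replicate 2 or 3 or GW4064 replicate 1 or 2.

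Coro1a, an actin-binding protein of blood cells, read -3.35, -3.62, -3.68 and -3.55 on the GW4064 arrays, against -4.04, -3.95, -3.78 and -3.82 on the DMSO arrays. Both groups kept apart, most closely at GW4064 replicate 3 and DMSO replicate 3. Its log2 change of 0.35 ± 0.08 (adjusted p 0.0234) was 0.51 on slide 1 and 0.18 on slide 2, and missed the threshold, with an adjusted p of up to 0.0646, without DMSO replicate 1 or 2. Tyrobp, the signalling adaptor DAP12 of myeloid and natural killer cells, read -1.58, -2.03, -1.72 and -1.84 on the GW4064 arrays, against -2.42, -2.31, -1.95 and -2.21 on the DMSO arrays. GW4064 replicate 2 lay below DMSO replicate 3. The log2 change was 0.43 ± 0.12 (adjusted p 0.0391), 0.56 on slide 1 and 0.30 on slide 2, and the adjusted p reached 0.0973 when DMSO replicate 1, 2 or 4 or GW4064 replicate 1, 3 or 4 was left out. The leukocyte count was 3 without DMSO replicate 1 or GW4064 replicate 1, and 2 without DMSO replicate 2.

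Ptprc, the phosphatase CD45 that defines leukocytes, read -4.39, -4.18, -4.33 and -4.37 on the GW4064 arrays, against -4.03, -4.10, -4.01 and -1.53 on the DMSO arrays. DMSO replicate 4 stood far above the other arrays. With it the log2 change was -0.90 ± 0.54 (adjusted p 0.279), and without it the change was -0.27 with an adjusted p of 0.0257 in limma, so Ptprc was then the leukocyte gene that fell. Of the macrophage markers that did not pass, Adgre1, the surface protein F4/80, changed by 0.28 ± 0.17, Mrc1, the mannose receptor, by 0.23 ± 0.16, and Aif1, a calcium-binding protein, by 0.15 ± 0.09. Itgam, the integrin chain CD11b, changed by 0.03 ± 0.11, while its 2 other probes changed by 0.41 ± 0.14 and 0.47 ± 0.30. Lyz1 and Lyz2, near-identical lysozyme genes that can share probe signal, changed by 0.24 ± 0.12 and 0.29 ± 0.13. Cd3e, a T-cell receptor chain, changed by 0.26 ± 0.15.

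Stromal genes had no common direction. Of 8 tested, 2 rose (25%), Pdgfrb and Thy1, and 1 fell (12.5%), Fbln2, with a median log2 change of 0.03. Among all genes 11.8% rose and 8.95% fell. Fibulin 2 (Fbln2), a secreted protein of basement membranes and elastic fibres, read 4.09, 4.18, 4.13 and 3.92 on the GW4064 arrays, against 4.64, 4.53, 5.06 and 4.75 on the DMSO arrays. Every GW4064 array lay below every DMSO array, with means of 4.08 ± 0.11 in GW4064 and 4.74 ± 0.23 in DMSO (SD, n = 4 each). Its log2 change was -0.66 ± 0.11, or 1.58-fold lower (limma adjusted p 0.00467), and was -0.45 on slide 1 and -0.88 on slide 2. The summed stromal signal, which includes Fbln2, ranged over 19.9 to 23.1 in GW4064 and 28.3 to 38.9 in DMSO. Without Fbln2 the sums overlapped, at 4.63 to 5.20 in GW4064 and 4.71 to 5.45 in DMSO.

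Pdgfrb, the receptor that defines pericytes and fibroblasts, read -1.46, -1.46, -1.44 and -1.29 on the GW4064 arrays, against -1.79, -1.83, -1.57 and -1.76 on the DMSO arrays. The groups did not overlap, and the log2 change was 0.33 ± 0.07 (adjusted p 0.0116), 0.35 on slide 1 and 0.30 on slide 2. Thy1, a surface glycoprotein of fibroblasts and T cells, read -4.26, -4.56, -3.94 and -4.11 on the GW4064 arrays, against -4.95, -4.93, -4.40 and -4.83 on the DMSO arrays. GW4064 replicate 2 lay below DMSO replicate 3. The log2 change was 0.56 ± 0.16 (adjusted p 0.0402), 0.53 on slide 1 and 0.59 on slide 2, and the adjusted p reached 0.101 when DMSO replicate 1, 2 or 4 or GW4064 replicate 1, 3 or 4 was left out. Under normexp with extreme backgrounds reset the change of Thy1 was 0.29 (adjusted p 0.0657). The stromal count was 1 higher and 1 lower without any of these 6 arrays.

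Decorin (Dcn), a collagen-binding proteoglycan that defines fibroblasts, read -4.32, -4.37, -4.44 and -4.58 on the GW4064 arrays, against -4.36, -4.27, -4.23 and -4.27 on the DMSO arrays. GW4064 replicate 1 lay inside the DMSO range, and the log2 change was -0.15 ± 0.06 (adjusted p 0.129). Pdgfra, the second receptor of that family on fibroblasts, changed by 0.19 ± 0.08 and Postn, a matrix protein of activated fibroblasts, by 0.20 ± 0.15. The pericyte genes gave -0.12 ± 0.06 for Cspg4, the proteoglycan NG2, and -0.14 ± 0.18 for Rgs5, a regulator of G-protein signalling.

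A second list held 60 further markers of the same classes, of which 52 were tested, 8 rose (15.4%) and 9 fell (17.3%), beside 11.8% and 8.95% of all genes. Of the 22 tested distal nephron genes 0 rose and 8 fell, with 1 higher and 10 lower at an unadjusted p under 0.05 in limma. The share of all genes at that unadjusted cut is not given. Rhcg, the ammonia channel, and Atp6v0d2, a proton pump subunit, both of intercalated cells, changed by -0.77 ± 0.11 and -0.71 ± 0.07 with adjusted p of 0.00217 and 0.000285. Kcnj10 and Kcnj16, which form the basolateral potassium channel of the distal convoluted tubule, changed by -0.71 ± 0.15 and -0.34 ± 0.05. Kcnj16 read 3.35, 3.27, 3.31 and 3.39 on the GW4064 arrays, against 3.70, 3.74, 3.60 and 3.62 on the DMSO arrays. Its groups did not overlap. The potassium channel Kcnj1 of the thick ascending limb fell by 0.63 on the log2 scale, the kallikrein Klk1 of the connecting tubule by 0.63, and Fxyd4, a sodium pump regulator of the collecting duct, by 0.46. The count of 8 was 4 without DMSO replicate 1, DMSO replicate 4 or GW4064 replicate 4, and 5 without GW4064 replicate 1. Adjusted p was above 0.05 for Kcnj1 (up to 0.0695) without DMSO replicate 1, 2 or 4 or GW4064 replicate 1 or 4, and for Fxyd4 (up to 0.087) without DMSO replicate 1, 2 or 4 or GW4064 replicate 1, 3 or 4. Klk1 (up to 0.0712) was lost without DMSO replicate 1, 3 or 4 or GW4064 replicate 4. Under normexp with extreme backgrounds reset, Atp6v0d2 changed by -0.31 (adjusted p 0.00247), Kcnj10 by -0.33 (adjusted p 0.0528) and Klk1 by -0.35 (adjusted p 0.0721).

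In the further leukocyte list 4 of 9 tested genes rose (44.4%) and 0 fell, beside 11.8% and 8.95% of all genes. At an unadjusted p under 0.05 in limma, a cut with no share of all genes beside it, 8 were higher and 0 lower. The first and second lists were both chosen with earlier results of these data known, so neither is a check of the other. Itgax, the integrin chain CD11c, changed by 0.98 ± 0.16, Lcp1, the actin bundler plastin 2, by 0.48 ± 0.07, Cd14, the co-receptor for lipopolysaccharide, by 0.40 ± 0.04, and Cd52, a surface peptide of lymphocytes, by 0.29 ± 0.08. Cd52 missed the threshold, with an adjusted p of up to 0.0899, without any 1 DMSO array or GW4064 replicate 2 or 3. It also missed it with slide as a block (adjusted p 0.0542, leaving 3 genes higher) and under quantile scaling, median centring and the deposited table. Under normexp with extreme backgrounds reset Itgax changed by 0.45 (adjusted p 0.00186). The transcription factor Spi1, which defines myeloid cells, and Cd53 and Cd8a, surface proteins of leukocytes and T cells, were detected by none of the 8 arrays. Of the 9 further endothelial genes tested, 0 rose and 0 fell (1 higher and 0 lower at an unadjusted p under 0.05). The further stromal list had 3 of 8 higher and 0 lower (4 and 0 unadjusted): Acta2, Tagln and Des, contractile and filament proteins of smooth muscle and myofibroblasts, changed by 0.49 ± 0.11, 0.53 ± 0.10 and 0.57 ± 0.13. Among 4 podocyte genes Plce1, a phospholipase, changed by 0.53 ± 0.05 and Cd2ap, a slit diaphragm adaptor, by -0.15 ± 0.04, which was lost (adjusted p up to 0.0749) without any 1 DMSO array or GW4064 replicate 3. Of the 29 tested proximal tubule markers, 18 rose, 3 fell and 8 did not pass on the same arrays, and the part of a change in cell make-up in these results was not tested.

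**Figure D4:**
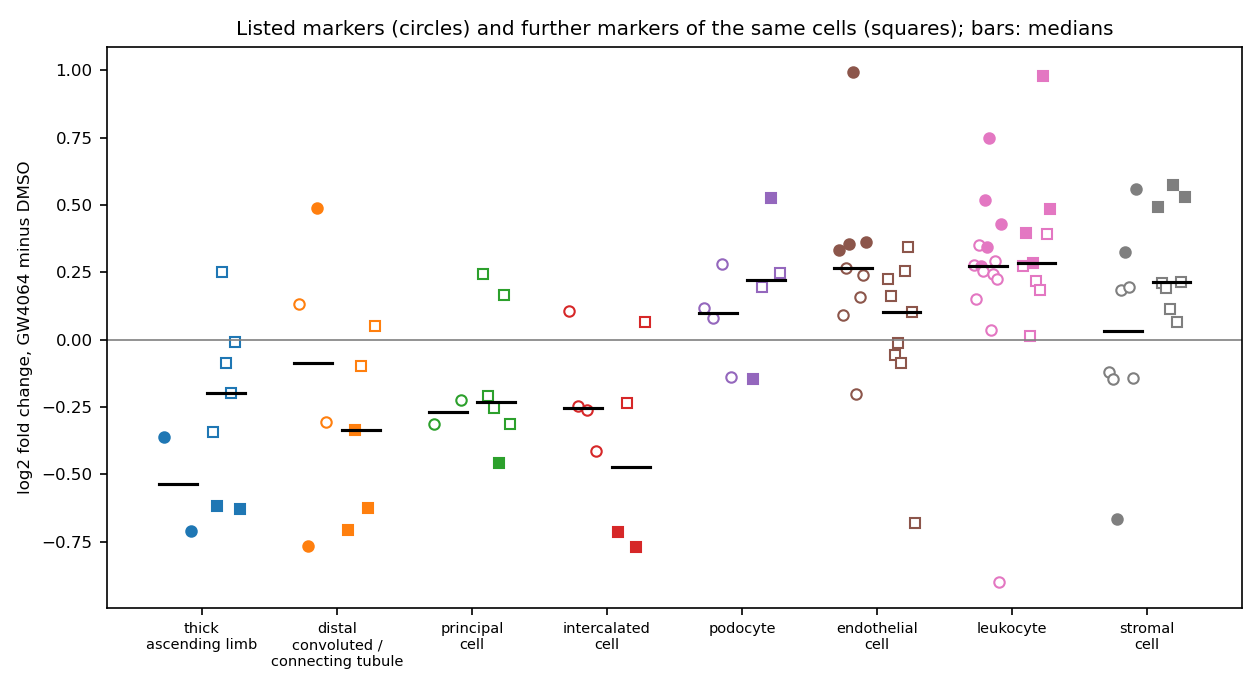
Points give the log2 fold change, GW4064 minus DMSO, of the 47 tested listed markers (circles) and the 52 tested further markers (squares) by cell class, filled where the adjusted p in limma was under 0.05, with a bar at each median. Both medians are below 0 for the 4 distal nephron classes, and above 0 for podocyte, endothelial, leukocyte and stromal genes.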

How the data were processed

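The deposited array files hold spot intensity from which background had been subtracted with Feature Extraction 10.7.3.1, as stated per the file headers. Agilent Feature Extraction 10.7 and limma appear in the submitters' processing notes. The authors also deposited a series table of log2 values of unstated scale, whose columns all had a median of 6.598 and followed their own array. Its sorted columns agreed to within 0.01, as they do after quantile scaling. The table had no gene centring and was used as an alternative. Of 44397 spots per array, 1377 controls and 98 to 174 marked outliers were left out, and no spot was saturated. Spots of a probe were averaged on the log2 scale and the array's 75th percentile was subtracted. Probes well above background on at least 4 of 8 arrays were kept (24723 of 39429), and each gene took its brightest kept probe. Accessions, without versions, were matched to the RefSeq gene table of GRCm38.p6 for names (27234 probes, 69.1%); the headers name mm9, so gene coordinates are given only for RefSeq promoters. The 53 genes had 62 probes, and 7 genes had several.

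The 2 treatments were set against each other in limma 3.58.1, run under R 4.3.3 (lmFit, eBayes, Benjamini-Hochberg over 14476 genes, threshold 0.05, no covariate); tables used Python 3.11.15. Errors of log2 changes are standard errors. On simulated data of 14476 genes the fit recovered 73 of 100 changes of 0.5 and 94 of 100 changes of 1 on the log2 scale and called 6 unchanged genes. The simulated noise was independent between genes and arrays, and far fewer genes changed than the 3006 called in the data. These recovery numbers therefore need not carry over to the data. Array values are given for every marker past the threshold, each marker well above background in 1 group only and the first listed detected marker of each class, and Synpo, Kcnj16 and Vwf were added after their values were seen. Further markers are named where past the threshold, apart from some that are counted but not reported here by name; Spi1, Cd53 and Cd8a were added after their values were seen. The members and lists were chosen with earlier results of these data known. Normexp, quantile and median scaling, other probe filters and rules, blocks, single slides, the deposited table and leaving out each array were the alternatives.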

Additional observations from a re-analysis of the deposited data

Results flagged for a closer look

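Among 140 groups of 4 arrays, 13 (9.29%) had 1 array set apart from the other 3 by a gap above the critical value of Dixon's test, where chance gives about 5%. DMSO replicate 4 read -1.53 for Ptprc, with the remaining 3 DMSO values between -4.10 and -4.01, and without it Ptprc passed the threshold as lower. GW4064 replicate 3 read -3.61 for Slc12a1, against -8.52 to -8.39, and GW4064 replicate 1 read -4.03 for Scnn1g, against -8.68 to -8.49. For 2 genes below background on every array, DMSO replicate 1 read -7.73 for Calb1, GW4064 replicate 2 read -8.35 for Tek and DMSO replicate 1 read -8.07 for Tek. Smaller gaps were found for Podxl in GW4064 replicate 2 (-1.09), Eng in GW4064 replicate 4 (-2.92), Pdgfrb in GW4064 replicate 4 (-1.29), Rgs5 in DMSO replicate 2 (-4.75) and Cd14 in DMSO replicate 1 (2.70). Tagln was highest in replicate 3 of both groups, at 5.64 in GW4064 and 5.11 in DMSO.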

How the results depend on the processing

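The 3006 calls over all genes became 119 under normexp, with 0 markers higher and 0 lower in limma (3 and 1 at an unadjusted p under 0.05), 966 on slide 1 alone (7 higher, 1 lower) and 220 on slide 2 alone (2 higher, 0 lower). Under normexp Plvap (-0.093), Eng (-0.089), C1qb (-0.19), Cd74 (-0.23), Coro1a (-0.22), Thy1 (-0.32), Plce1 (-0.12), Lcp1 (-0.057), Cd52 (-0.31) and Itgax (-0.36) changed sign. On DMSO replicate 3, local background reached 53526 units at the highest of 6 spots, against a median of 30 units, and the median normexp level of 3345 dim genes was -0.93 there, against -3.64 to -3.36 on the other arrays. Resetting local backgrounds over 3 times the array median (6 spots on DMSO replicate 3 and 4 on DMSO replicate 4), an alternative chosen after seeing the data, gave 2192 genes and 11 higher and 2 lower markers, all among the 16 called; Cldn16, Slc12a3 and Thy1 were lost. Without the filter on dim probes 7 were higher and 2 lower. Leaving out 1 array gave 2076 to 2827 genes, 7 to 13 higher and 2 to 5 lower markers. Quantile scaling and the deposited table each gave 10 higher and 4 lower, without Tyrobp and Thy1. The columns of that table already share a distribution, so the 2 settings are not separate checks. Over all settings, 239 of 335 values of the 16 called markers kept direction and side of the threshold, 90 missed it and 6 changed sign; for 17 called further markers the numbers were 265, 87 and 4 of 356. Detection in DMSO ranged over 45 to 50 of 53 markers across detection rules.

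No pairing by replicate number was evident, with same-numbered deviations correlated at -0.13, -0.03, 0.19 and -0.02. Replicate 3 alone correlated best with its own number. So few values cannot exclude a paired design. A replicate block gave 2322 genes and 9 higher and 4 lower markers, and a slide block gave 2856 genes and 12 higher and 4 lower. Signal over background limits 23 of the 47 tested markers, whose mean lay under -3 on the log2 scale (3 higher, 3 lower). Of all 3345 genes under that limit, 10.8% were higher and 6.58% lower. The 3 lower markers under it were Umod, Cldn16 and Slc12a3.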

Other observations

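Vwf, the clotting factor that endothelial cells store, was looked at after its values were seen, because it behaved like Ptprc. It read -4.73, -5.10, -5.21 and -4.73 on the GW4064 arrays, against -5.22, -5.17, -4.63 and -2.02 on the DMSO arrays. DMSO replicate 4 again stood apart from the other arrays, and the log2 change was -0.68 ± 0.66 (limma adjusted p 0.503), so the gene did not pass. Ptprc and Vwf lie in different cell classes. Other genes of both classes, picked as examples, varied in where DMSO replicate 4 lay. It was inside the range of the other DMSO arrays for Csf1r and Coro1a. It was the lowest DMSO array for Cdh5 and Plvap. By a wider gap it was also the lowest for Kdr (0.58, against 0.92 to 1.19) and Cd3e (-2.26, against -1.80 to -1.50). The cause of the high values of Ptprc and Vwf was not tested. The 3 proximal tubule markers that fell while 18 rose were Mme, the peptidase neprilysin, Kap, an androgen-regulated kidney protein, and Acsm2, a mitochondrial acyl-CoA synthetase. Among the further markers not tested, Aqp6, Hepacam2, Erg, Cd53, Cd8a and Spi1 were detected by no array, and the chemokine receptor Cx3cr1 was detected by 1 GW4064 array and 0 DMSO arrays.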
